A study of Arabidopsis thaliana with 4 samples.

Results

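The genes described here are 10 loci of *Arabidopsis thaliana* that belong to, or regulate, the transcript response to disturbed mitochondria, with the alternative oxidase gene *AOX1A* (AT3G22370) as the reference member. The others are *AOX1D* (AT1G32350), *NDB2* (AT4G05020), *UPOX* (AT2G21640), *OM66* (AT3G50930), *NAC013* (AT1G32870), *NAC017* (AT1G34190), *UGT74E2* (AT1G05680), AT5G09570 and AT2G41730, written below as *At5g09570* and *At2g41730*. The list was set by locus name, with earlier results of these data known but by a rule that uses no measured value, and every non-control probe paired to 1 of these loci was used. This gave 17 probes for 10 of the 25410 loci on the array. On every array all 17 probes clearly exceeded background in the Cy3 and the Cy5 channel and none was saturated, so each of the 10 genes passed the filter on dim probes, as did 21172 loci in all.

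Mitochondria send signals to the nucleus when respiration is blocked or reactive oxygen builds up, and this communication is called retrograde signalling. In *Arabidopsis*, NAC transcription factors that are anchored in the endoplasmic reticulum membrane, among them NAC013 and NAC017, are released by such stress and bind a short promoter element known as the mitochondrial dysfunction motif. *AOX1A*, *UPOX*, *OM66* and *UGT74E2* are among the genes that carry this element and serve as readouts of the pathway, and aluminum (Al) is among the stresses that are known to disturb plant mitochondria.

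Each of 4 two-colour microarrays compared Al-treated plants (Cy5) with untreated plants (Cy3) of the same line, and 2 arrays were hybridised per line. The lines were wild-type ecotype Columbia-0 (Col-0) and an *AvSAMS1* transformant (TF), which carries an S-adenosyl methionine synthetase gene of the wild grass *Andropogon virginicus* under the constitutive CaMV 35S promoter. The TF samples came from 1 homozygous single-insert line in the Col-0 background, and each RNA came from a pool of plants. The transcript of *AvSAMS1* itself, a grass gene, was not analysed here. Plants of both lines were 3 weeks old and grown in soil, and the treated plants received an aluminum chloride solution at pH 4.2 for 2 days. The labels give its strength as 300 mM, and the methods give it in µM. According to the labels, the untreated plants were collected on day 0 in replicate 1 and on day 2 in replicate 2, in both lines. The treated plants were collected on day 2, so each replicate 1 ratio holds Al treatment together with 2 days of time. Plants taken on day 0 would also not have had 2 days at pH 4.2. Al, time and exposure to the acid solution cannot be told apart in that replicate, and Al response below names the ratio only. The tissue is labelled whole plant, and the labelling protocol speaks of shoots.

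The 4 arrays differed in ways that bear on every value below. The median untreated (Cy3) signal was 244 and 505 on Col-0 replicates 1 and 2, and 152 and 512 on *AvSAMS1* TF replicates 1 and 2. Across 25773 probes above background everywhere, the log2 ratios of both replicate 2 arrays, which shared 1 slide, correlated at r = 0.83. The correlation was 0.48 between the Col-0 arrays, -0.28 between the *AvSAMS1* TF arrays, and -0.33 between Col-0 replicate 2 and *AvSAMS1* TF replicate 1. *AvSAMS1* TF replicate 1 therefore stood apart from the other 3 arrays. Probes are not independent replicates, so these values are descriptions, and the dyes are those stated in the methods. Al-treated RNA was Cy5 on all 4 arrays, so a dye effect at a probe cannot be told apart from the Al response. Sampling day, slide and experiment all change together between replicates 1 and 2 and cannot be told apart. The replicate 1 arrays of the lines lay on different slides, so line and slide cannot be told apart within replicate 1. In pooled tissue of this kind, a lower share of 1 cell type and less RNA per cell cannot be told apart either.

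*AOX1A* encodes the main stress-inducible alternative oxidase, which takes electrons from ubiquinol and bypasses the cytochrome pathway. Its log2 ratio of Al-treated over untreated signal was 0.60 and 0.087 in Col-0 replicates 1 and 2, against -0.88 and -0.44 in replicates 1 and 2 of the *AvSAMS1* TF line. In what follows, pairs of values are given in the order of the replicates. The lines did not overlap, with both Col-0 ratios above 0 and both *AvSAMS1* TF ratios below 0. As ratios these were 1.52 and 1.06 in Col-0 against 0.543 and 0.735 in the *AvSAMS1* TF line. The limma model over all 4 arrays, with 34739 probes tested and Benjamini-Hochberg adjustment, gave a difference between the lines of -1.01 (SE 0.43, adjusted p = 0.999), with a 95% confidence interval from -2.18 to 0.17. The Al response itself was 0.34 (SE 0.30, adjusted p = 0.828) in Col-0 and -0.66 (SE 0.30, adjusted p = 0.991) in the *AvSAMS1* TF line by the same limma fit. None of these passed the threshold of 0.05. When each array was left out in turn, the difference stayed negative, between -1.26 and -0.75.

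*AOX1A* was measured by 3 probes. Probe 2 read 0.90 and -0.11 in Col-0, against -0.65 and -0.51 in the TF line. Probe 3 read 1.04 and -0.0027 in Col-0, against -0.93 and -0.66 in the TF line. At each of the 3 probes the TF ratios were the lower pair, but at probes 2 and 3 the ratio of Col-0 replicate 2 was slightly under 1. The difference between the lines was -0.98 (SE 0.50) and -1.31 (SE 0.52) at these probes, with a limma adjusted p = 0.999 for both.

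**Figure D1:**
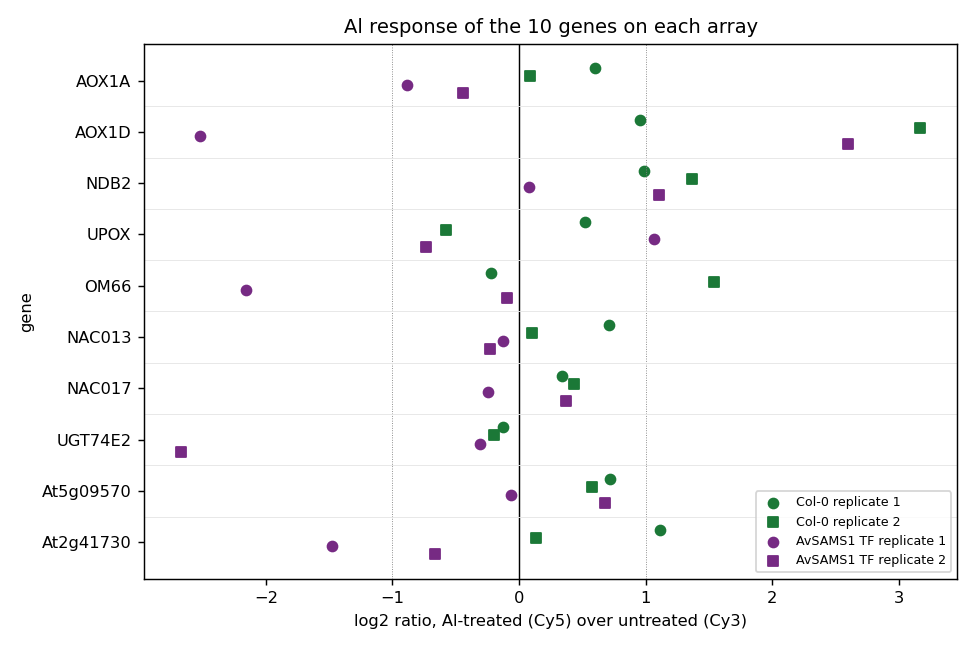
Log2 ratio of Al-treated (Cy5) over untreated (Cy3) signal (x axis) for each of the 10 genes (y axis), with 1 point per array, green for Col-0 and purple for *AvSAMS1* TF, circles for replicate 1 and squares for replicate 2; dotted lines mark a 2-fold change. Both purple points lie to the left of both green points for 4 genes, *AOX1A*, *NAC013*, *UGT74E2* and *At2g41730*, whereas *AOX1D* spans from -2.52 to 3.17.

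The second oxidase gene, *AOX1D*, is also stress-inducible in *Arabidopsis* and had the widest values of the 10 genes. The log2 ratios were 0.95 and 3.17 in Col-0, against -2.52 and 2.60 in the TF line. The ratio was thus 9.001 in Col-0 and 6.04 in the TF line in replicate 2, but 1.94 and 0.175 in replicate 1. The lines overlapped, and the replicates of the *AvSAMS1* TF line went in opposite directions. The limma estimate was 2.06 (SE 1.41, adjusted p = 0.773) in Col-0 and 0.039 (SE 1.41, adjusted p = 1.00) in *AvSAMS1* TF. The second *AOX1D* probe had the same sign on each array and reached 4.77 in Col-0 replicate 2, so both probes show the same pattern with different size.

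*NDB2* encodes a type II NAD(P)H dehydrogenase on the outer face of the inner mitochondrial membrane, which feeds electrons into the ubiquinone pool and is often co-expressed with *AOX1A*. The arrays gave log2 ratios of 0.99 and 1.37 in Col-0, against 0.082 and 1.101 in the TF line, and it was the only member whose ratio was above 1 on all 4 arrays. The lines overlapped by the *AvSAMS1* TF replicate 2 array. In Col-0 the limma estimate was 1.18 (SE 0.37, adjusted p = 0.655), with an unadjusted 95% confidence interval from 0.16 to 2.20. The difference between the lines was -0.59 (SE 0.52, limma adjusted p = 0.999). The second *NDB2* probe was below 1 in *AvSAMS1* TF replicate 1, at a log2 ratio of -0.45, and above 1 on the other 3 arrays.

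Of the genes for mitochondrial proteins without a role in electron transport, *OM66* encodes an AAA-type ATPase of the outer membrane. Log2 ratios of *OM66* were -0.22 and 1.54 in Col-0, against -2.16 and -0.10 in the TF line. Replicate 2 was above replicate 1 in each line, so the lines overlapped, yet within each replicate number *AvSAMS1* TF was lower, by 1.94 in replicate 1 and 1.64 in replicate 2. The difference was -1.79 (SE 1.02, limma adjusted p = 0.999), with a 95% confidence interval from -4.61 to 1.04. With a block for the replicate number the SE was 0.40 and the limma adjusted p = 0.887. At the second *OM66* probe the log2 ratios of Col-0 replicate 1 and of *AvSAMS1* TF replicate 2, near 0 at both probes, were slightly above 0, at 0.051 and 0.085. Without *AvSAMS1* TF replicate 1 the difference was -0.76, and without replicate 2 it was -2.82.

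*UPOX*, named for its up-regulation by oxidative stress, showed another pattern. In Col-0 its log2 ratio was 0.52 and -0.58, and in the TF line it was 1.07 and -0.74. Replicate 1 was above 0 and replicate 2 below 0 in each line, and the line difference was 0.19 (SE 0.83, limma adjusted p = 0.999). The second *UPOX* probe stayed within 0.15 of the first on each array.

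*At5g09570* encodes a small twin CX9C protein that is also known as a mitochondrial stress marker. Its Al ratio on the log2 scale was 0.71 and 0.58 in Col-0, against -0.060 and 0.68 in the TF line. The ratio of *AvSAMS1* TF replicate 2 lay between both Col-0 ratios, so the lines overlapped, and the limma difference was -0.34 (SE 0.44, limma adjusted p = 0.999).

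Of the regulators, *NAC013* had log2 ratios of 0.71 and 0.10 in Col-0, against -0.13 and -0.23 in the TF line. The lines did not overlap and lay on opposite sides of 0, but the sign in *AvSAMS1* TF depended on how the ratios were made. When the ratios were instead made by normexp background correction and centred on the median probe, its TF ratios were above 1, at 0.23 and 0.19 on the log2 scale, while the medians of all loci on these arrays stood at 0.27 and 0.23. The difference between the lines was -0.58 (SE 0.41, limma adjusted p = 0.999). *NAC017*, the regulator that acts upstream of *AOX1A*, had log2 ratios of 0.34 and 0.43 in Col-0, against -0.24 and 0.37 in the TF line. Its limma difference was -0.32 (SE 0.42, limma adjusted p = 0.999), with a 95% confidence interval from -1.47 to 0.83, so a line difference of over 2-fold lay within the interval. The second *NAC017* probe read 0.26 and 0.55 in Col-0, against -0.32 and -0.032 in the TF line, and there the lines did not overlap. It was far dimmer, with processed signals from 52 to 294, against 6297 to 14351 at the first probe.

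*UGT74E2* encodes a UDP-glucosyltransferase that conjugates the auxin indole-3-butyric acid. Its log2 ratio was -0.13 and -0.20 in Col-0, against -0.31 and -2.67 in the TF line. Col-0 and *AvSAMS1* TF replicate 1 differed little, and the low value came from *AvSAMS1* TF replicate 2 alone, where the ratio was 0.157. The fitted difference between the lines was -1.33 (SE 0.91, limma adjusted p = 0.999), and without *AvSAMS1* TF replicate 2 it was -0.14. The limma estimate in *AvSAMS1* TF was -1.49 (SE 0.64, adjusted p = 0.991).

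*At2g41730* encodes a stress-inducible protein of unknown function and was the only member whose line difference had an unadjusted p under 0.05 in the limma fit of the deposited ratios. With ratios made by normexp and either loess or median centring, *AOX1A* had one as well. The log2 ratio of *At2g41730* was 1.11 and 0.13 in Col-0, against -1.48 and -0.66 in the TF line, without overlap and with opposite signs. The difference was -1.69 (SE 0.57, limma adjusted p = 0.999), with an unadjusted 95% confidence interval from -3.28 to -0.11, and with each array left out in turn it was between -2.18 and -1.20. The limma estimate was 0.62 (SE 0.40, adjusted p = 0.760) in Col-0, against -1.07 (SE 0.40, adjusted p = 0.991) in the TF line. The ratio of 1.096 in Col-0 replicate 2 was close to no change, so the Col-0 estimate rested on replicate 1, where the ratio was 2.17.

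**Figure D2:**
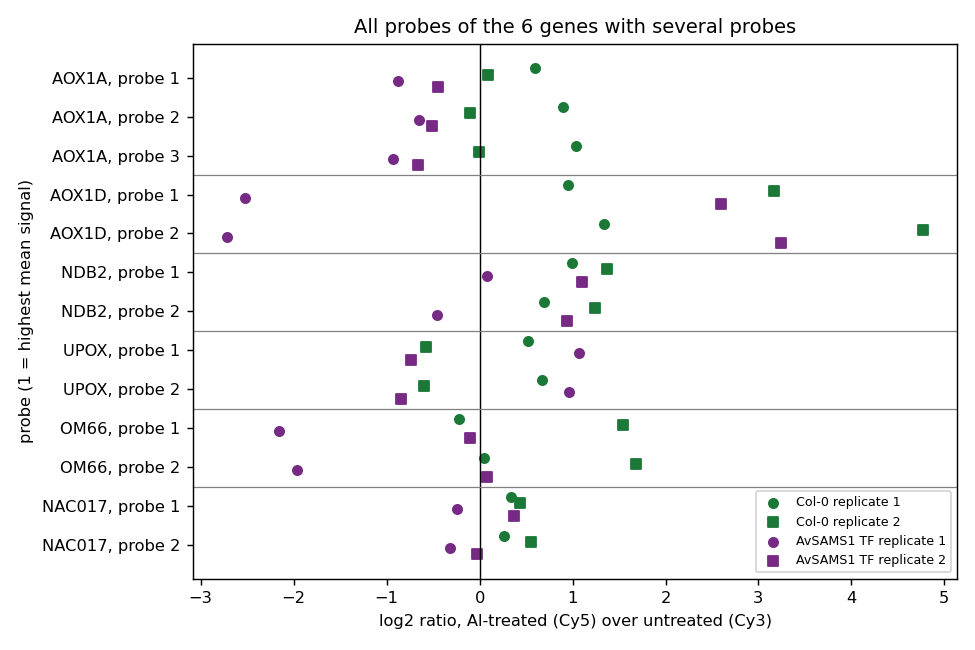
Log2 ratio of Al-treated over untreated signal (x axis) at all probes of the 6 genes with several probes (y axis), with 1 point per array, colours and symbols as for the plot of the 10 genes. The 3 *AOX1A* probes differ by at most 0.44 on an array and the *UPOX* probes by at most 0.15, whereas the *AOX1D* probes differ by up to 1.60.

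Counts over the 10 genes are given beside the same counts over all loci. For 4 members the TF ratios both lay below the Col-0 ratios without overlap (*AOX1A*, *NAC013*, *UGT74E2* and *At2g41730*), beside 11.3% of all 21163 loci with complete values, and the reverse order was found for 0 members, beside 15.5% of loci. A ratio above 1 on each Col-0 array with a ratio below 1 on each TF array was found for 3 members (*AOX1A*, *NAC013* and *At2g41730*), beside 1.68% of loci, and the opposite signs for 0, beside 2.28%. When the ratios were instead made by normexp background correction and centred on the median probe, *UGT74E2* stood in place of *NAC013* among these 3. *AOX1A* met this rule at its probe of highest signal only, and the mean of all probes of a locus left 2 members. These, *NAC013* and *At2g41730*, have 1 probe each, so that mean could not change them. With 1 array left out at a time, the members for which *AvSAMS1* TF was below Col-0 were 8 without Col-0 replicate 1 (24.9% of loci), 5 without Col-0 replicate 2 (26.5%), 5 without *AvSAMS1* TF replicate 1, the array that stood apart (28.4%), and 9 without *AvSAMS1* TF replicate 2 (38.5%).

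Within replicate numbers, which mark an experiment in the labels, *AvSAMS1* TF was below Col-0 for 9 members in replicate 1 and for 9 in replicate 2, beside 48.5% and 45.9% of all loci. *UPOX* was the exception in replicate 1 and *At5g09570* in replicate 2. The other 8 members were lower in both replicate numbers, beside 24.4% of loci, and 0 were higher in both, beside 29.4%. The median difference over the members was -0.87 in replicate 1 and -0.43 in replicate 2, beside medians over all loci of 0.015 and 0.028. The differences were larger in replicate 1, both for the members and for all loci, whose quartiles ran from -0.60 to 0.79 there and from -0.18 to 0.22 in replicate 2. Only the replicate 2 arrays shared a slide, so in replicate 1 line and slide cannot be told apart. Because the members were chosen as a pathway that moves together and share the same 4 arrays, these counts are descriptions and carry no test.

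**Figure D3:**
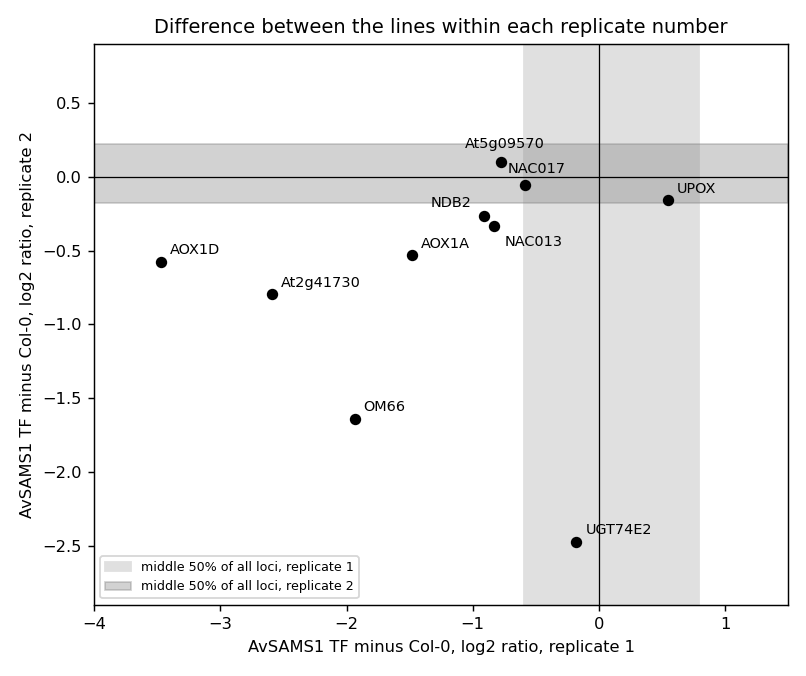
Difference in log2 ratio between *AvSAMS1* TF and Col-0 in replicate 1 (x axis) and in replicate 2 (y axis), with 1 point per gene; the vertical and horizontal bands hold the middle 50% of all 21163 loci in replicates 1 and 2. The points for 8 of the 10 genes lie below 0 on both axes, with *UPOX* (0.54, -0.16) and *At5g09570* (-0.77, 0.10) outside that region.

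In Col-0 alone, the ratio was above 1 on both arrays for 7 members, beside 33.1% of loci, and below 1 on both for *UGT74E2* alone, beside 30.1%. *UPOX* and *OM66* had opposite signs on the Col-0 arrays, beside 34.4% of loci. None of the 10 was beyond 2-fold up on both Col-0 arrays, a rule that 3.7% of loci met, although in Col-0 replicate 1 *NDB2* (ratio 1.99) and *AOX1D* (1.94) fell just short of it. Their ratios in Col-0 replicate 2 were 2.58 and 9.001. None was beyond 2-fold down there, beside 2.45% of loci, nor beyond 2-fold up (0.954% of loci) or down (1.46% of loci) on both arrays of *AvSAMS1* TF. By the single-array P-value of Feature Extraction at 0.05 on both arrays, which holds no spread between replicates, 3 members were up in Col-0 (*AOX1D*, *NDB2* and *At5g09570*), beside 10.5% of loci, and 0 were down, beside 9.99%. By the same rule 2 were down in *AvSAMS1* TF (*AOX1A* and *At2g41730*), beside 3.53% of loci, and 0 were up, beside 2.91%. In *AvSAMS1* TF, both ratios were below 1 for 5 members, beside 17.5% of loci, and both above 1 for *NDB2* alone, beside 19.9%. The other 4 had opposite signs on its replicates, beside 60% of loci. By the limma fits, 0 of 34739 probes passed an adjusted p of 0.05 in Col-0, in *AvSAMS1* TF or for the difference between the lines, that is 0% each, while 7.54%, 3.48% and 0.967% of probes had an unadjusted p under 0.05.

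The median log2 ratio of the 10 genes was 0.65 and 0.28 in Col-0, against -0.27 and -0.17 in the TF line, beside medians of all loci between -0.019 and 0.053. Genes for leaf photosynthesis had the opposite order of the lines on the same arrays. All 10 such markers were above background in both channels of every array, and the median of their log2 ratios was -1.17 and -0.21 in Col-0, against 0.74 and 0.081 in the TF line. For 9 of these 10, the TF ratios were the higher pair without overlap, beside 15.5% of loci. *LHCB2.1*, which encodes a light-harvesting protein, was the 1 leaf marker beyond 2-fold down on both Col-0 arrays, at -1.61 and -1.96, against 1.22 and -1.22 in the TF line. The summed processed signal of the leaf markers in untreated plants was between 2544554 and 3588450 in Col-0 and between 722549 and 2070177 in *AvSAMS1* TF, and in Al-treated plants it was between 1211613 and 3341237 in Col-0 and between 1242048 and 2607590 in *AvSAMS1* TF. Their part in the results on the 10 genes was not tested.

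Root markers were also detected, which bears on whether the tissue was shoot or whole plant. Of 12, in untreated plants 4 were above background in Col-0 replicate 1, 6 in *AvSAMS1* TF replicate 1 and all 12 on both replicate 2 arrays, and between 4 and 9 in Al-treated plants. Their summed signal ran from 2069 to 8617 in untreated and from 2245 to 3572 in Al-treated Col-0, and from 820 to 4261 and from 688 to 2639 in *AvSAMS1* TF. On the replicate 2 arrays the median of their log2 ratios was -2.72 in Col-0 and -2.30 in the TF line. *GPAT5* went the other way, as the only root marker with log2 ratios above 0 on the replicate 2 arrays. It was above background in both channels of all 4 arrays, at 4.64 and 0.97 in Col-0, against -0.42 and 0.67 in the TF line. On the replicate 1 arrays most root markers were at background in 1 or both channels, so their median ratio there is not read. By the deposited ratios 3 root markers (*EXPA7*, *CASP1* and *MYB36*) were beyond 2-fold down on both TF arrays, but the Al-treated signal was not well above background for any of them on TF replicate 1, nor for *EXPA7* on any array, so these ratios are not given. Their part in the results on the 10 genes was not tested.

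Each log2 ratio joins an Al-treated and an untreated level, and both channels were set between the lines after normalization across arrays. These levels are log2 signals of 1 probe and can be compared between samples, not between genes. Untreated *AOX1A* was at 13.35 and 13.92 in Col-0, against 14.12 and 14.45 in the TF line, so untreated *AvSAMS1* TF was the higher, without overlap. The Al-treated levels were 13.82 and 14.03 in Col-0, against 13.16 and 14.06 in the TF line, and these overlapped. The untreated difference was 0.65 (SE 0.33, limma adjusted p = 0.764).

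The other *AOX1A* probes had the same order in untreated plants, without overlap at either. Probe 2 was at 11.04 and 12.02 in Col-0, against 12.28 and 12.98 in the TF line. Probe 3 was at 9.26 and 10.0001 in Col-0, against 10.96 and 11.65 in the TF line, with a limma difference of 1.68 (SE 0.42, adjusted p = 0.474). In Al-treated plants, *AvSAMS1* TF was lower at both probes in replicate 1 (by 0.21 and 0.09 on the log2 scale) and higher in replicate 2 (by 0.57 and 1.03), so the lines overlapped. *At2g41730* had the same form, with untreated levels of 8.30 and 8.16 in Col-0, against 9.13 and 8.97 in the TF line. Its untreated difference was 0.82 (SE 0.26, limma adjusted p = 0.600), whereas the Al-treated levels of 9.14 and 8.24 against 8.19 and 8.43 overlapped. For both genes a lower Al ratio in the TF line stood beside a higher untreated level in that line.

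*OM66* and *UGT74E2* differed in the other channel. Al-treated *OM66* was at 13.09 and 12.45 in Col-0, against 10.98 and 11.49 in the TF line, with a limma difference of -1.53 (SE 0.35, adjusted p = 0.281). Its untreated levels, 13.38 and 10.95 in Col-0, against 13.14 and 11.48 in the TF line, overlapped and split by replicate. After Al treatment the second *OM66* probe was at 7.65 and 8.01 in Col-0, against 6.85 and 7.64 in the TF line, a smaller difference of -0.58 (SE 0.36, limma adjusted p = 0.802). That probe was far dimmer, with processed signals from 23 to 312, against 1895 to 12293 at the first probe. The part of the low signal in the smaller difference was not tested. Al-treated *UGT74E2* was at 13.39 and 13.15 in Col-0, against 12.30 and 11.58 in the TF line, with a limma difference of -1.33 (SE 0.34, adjusted p = 0.336). Its untreated levels, 13.55 and 13.30 against 12.65 and 14.13, overlapped.

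For *AOX1D* the replicate mattered more than the line in untreated plants. Its untreated level was 11.36 and 8.48 in Col-0, against 12.43 and 9.77 in the TF line, so replicate 2 (labelled day 2) minus replicate 1 (labelled day 0) was -2.88 in Col-0 and -2.66 in the TF line. *AvSAMS1* TF was above Col-0 by 1.07 and 1.29 within replicates 1 and 2. The limma difference was 1.18 (SE 1.36, adjusted p = 0.902), and with the replicate number as a block it had an SE of 0.22 and an adjusted p = 0.122. After Al treatment the levels were 12.19 and 11.32 in Col-0, against 9.99 and 12.31 in the TF line, so *AvSAMS1* TF was the lower in replicate 1 and the higher in replicate 2.

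The untreated level of *NDB2* followed the replicate in the same manner, at 11.58 and 10.72 in Col-0, against 11.85 and 11.03 in the TF line. Its Al-treated level was between 11.90 and 12.47 on all 4 arrays, higher than the untreated level of the same array on each. *NAC013* was lowest in Al-treated *AvSAMS1* TF replicate 1, at 9.92, and between 10.06 and 10.93 in the other samples. *NAC017* stayed between 12.65 and 13.23, and *UPOX* between 9.26 and 11.06. *At5g09570* was the only member that was lower in *AvSAMS1* TF without overlap in both channels, at 7.44 and 7.28 against 7.55 and 7.86 in untreated Col-0, and at 7.37 and 7.77 against 7.97 and 8.26 in treated Col-0. Its only probe was dim, with processed signals from 51 to 407.

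**Figure D4:**
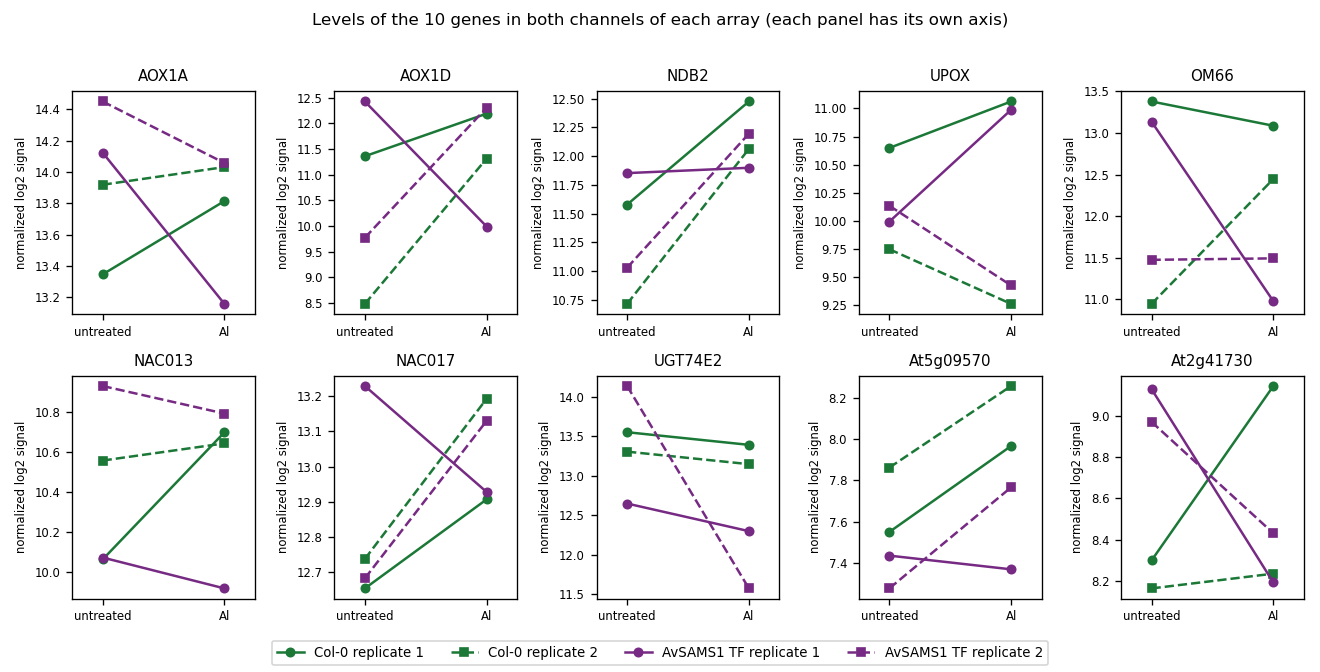
Normalized log2 signal (y axis, with its own range in each panel) in untreated and Al-treated plants (x axis) for each of the 10 genes, with 1 line per array, green for Col-0, purple for *AvSAMS1* TF, solid for replicate 1 and dashed for replicate 2. Untreated *AOX1A* and *At2g41730* are higher in *AvSAMS1* TF on both arrays, and treated *OM66* and *UGT74E2* are lower.

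In untreated plants, the *AvSAMS1* TF level was above both Col-0 levels without overlap for 2 members (*AOX1A* and *At2g41730*), beside 14.3% of loci, and below for *At5g09570*, beside 21.8%. Within replicate numbers it was above for 5 members in both, beside 27.6%, and below for 1, beside 38.9%. In Al-treated plants it was below without overlap for 3 members (*OM66*, *UGT74E2* and *At5g09570*), beside 18.7% of loci, and above for 0, beside 16.6%. Within replicate numbers it was below for the same 3 in both, beside 31.7%, and above for 0, beside 27.9%. No member passed an adjusted p of 0.05 by limma in either channel, which 0.213% of probes did in untreated plants and 0.656% in Al-treated plants, while an unadjusted p under 0.05 was found for 7.28% and 8.66% of probes. At the probes that stood for the 10 genes, 50 limma tests were made (5 comparisons at 1 probe each). Of these, 5 had an unadjusted p under 0.05 by limma. They were *NDB2* in Col-0, *OM66* and *UGT74E2* in Al-treated plants, and *At2g41730* for the difference in response and in untreated plants. The lowest adjusted p by limma was 0.281. The other probes of these genes were tested by limma in the same 5 comparisons and are not in this count. Among them only *AOX1A* probe 3 in untreated plants, with a limma difference of 1.68, fell under the same unadjusted limit. The lines lay on different arrays, so these comparisons are open to differences between arrays.

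The other genes of the pathway were taken as 5 further lists. Of 10 other mitochondrial dysfunction genes, all were measured, and their median log2 ratio was 0.69 and 0.52 in Col-0, against -0.51 and -0.81 in the TF line. For 5 of them the TF ratios were the lower pair without overlap, beside 11.3% of loci, and *AvSAMS1* TF was lower in both replicate numbers for 7, beside 24.4%. Of these 5, 3 rest in part on signals at background. The MATE-type transporter gene *AT2G04070* and the dehydrogenase gene *NDB4* did not exceed background in either channel on either replicate 1 array, nor untreated in Col-0 replicate 2, nor, for *NDB4*, Al-treated in TF replicate 2. The transporter gene *AT2G04050* did not exceed it untreated in Col-0 replicate 1. The acetyltransferase gene *AT2G32020* was measured on all 4 arrays, at 0.44 and -0.06 in Col-0, against -1.60 and -0.81 in the TF line. *OXI1*, a protein kinase gene induced by hydrogen peroxide, was beyond 2-fold up on both Col-0 arrays at 1.14 and 3.71, and was -1.74 and 4.50 in *AvSAMS1* TF. That is the form *AOX1D* had.

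Of 9 other alternative oxidase and NAD(P)H dehydrogenase genes, 8 were measured, with medians of 0.10 and 0.098 in Col-0, against -0.044 and -0.15 in the TF line, close to those of all loci. These medians rest in part on signals at background. They include *AOX1B*, *AOX1C*, *AOX2* and *NDB4*, each not above background in at least 1 channel of an array. *NDA1*, an internal dehydrogenase gene that is regulated by light in *Arabidopsis*, was beyond 2-fold down on both Col-0 arrays, at -2.40 and -1.50, and was 0.43 and -1.40 in *AvSAMS1* TF. *AOX2* was not well above background in untreated plants on any array, so no ratio is given. Of 12 retrograde regulators, 11 were measured, and *AvSAMS1* TF was lower in both replicate numbers for 8, beside 24.4% of loci, and without overlap for 2, beside 11.3%. *NAC053*, a NAC factor linked to reactive oxygen and the proteasome, was beyond 2-fold up on both Col-0 arrays, at 1.12 and 1.56, and was -0.37 and 1.101 in the TF line.

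The list for the phosphorylating respiratory chain held 16 genes, and these include an uncoupling carrier gene that is not part of that chain. *AvSAMS1* TF was lower in both replicate numbers for 9 of the 16, the carrier gene among them, beside 24.4% of loci. It was lower without overlap for 3, beside 11.3%. The medians of the list were 0.33 and 0.33 in Col-0, against -0.14 and 0.23 in the TF line. *CYTC-2*, a cytochrome c gene, was beyond 2-fold up on both Col-0 arrays, at 1.09 and 1.45, and was -0.15 and 1.38 in *AvSAMS1* TF. The lower ratio in *AvSAMS1* TF replicate 1 was thus shared by genes of the main chain, while in replicate 2 their median was closer to that of Col-0 than the median of the 10 genes was. No gene of these lists passed an adjusted p of 0.05 by limma. Among the near copies of members that were measured, *NAC016*, next to *NAC017* in sequence, was at 0.35 and 1.22 in Col-0, against -0.96 and 0.55 in the TF line. *At3g50940*, close to *OM66*, was at 0.65 and -0.28 in Col-0, against 0.90 and -0.32 in the TF line, and its untreated signal on TF replicate 1 was not well above background. Signal shared between near copies at a probe was not tested.

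**Figure D5:**
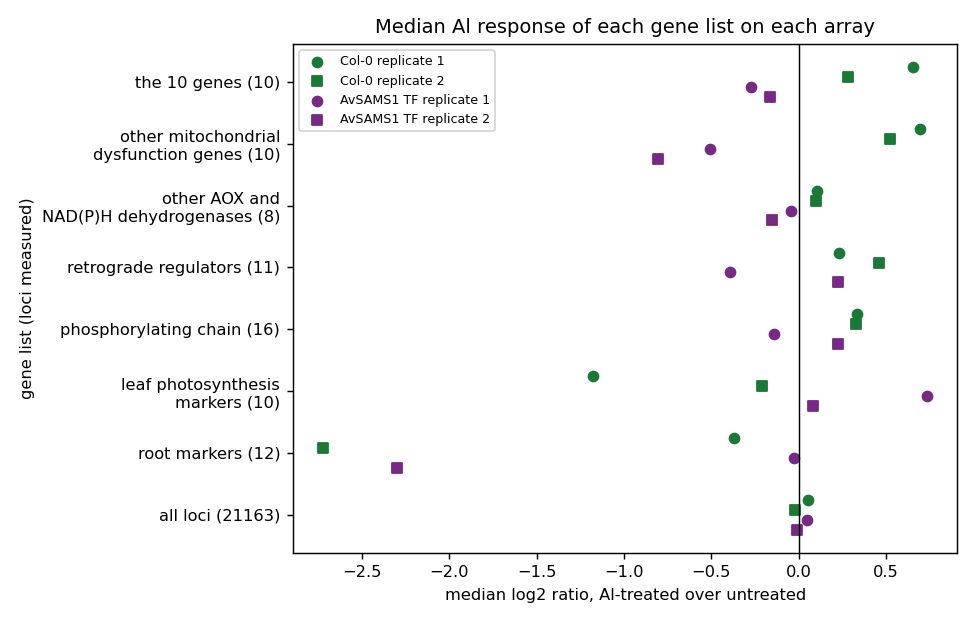
Median log2 ratio of Al-treated over untreated signal (x axis) for each gene list and for all loci (y axis, with the number of loci measured), with 1 point per array, colours and symbols as for the plot of the 10 genes. For the 10 genes the medians are 0.65, 0.28, -0.27 and -0.17 on Col-0 replicates 1 and 2 and *AvSAMS1* TF replicates 1 and 2, the leaf markers have the opposite order, and the replicate 1 points of the root markers rest mostly on signals at background.

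The genes whose ratios were nearest to those of *AOX1A*, by the mean absolute difference over the 4 arrays among 16668 loci above background everywhere, were *AT1G02770* at 0.0514, *APR1* at 0.0790 and *CYP704A2* at 0.0902. *APR1*, which encodes an enzyme of sulfate reduction, had log2 ratios of 0.62 and 0.16 in Col-0, against -1.09 and -0.42 in the TF line. Of the members, *NAC013* (0.27) and *At2g41730* (0.34) were nearest to *AOX1A* and *AOX1D* (2.03) was farthest, so the other oxidase gene was the member least like *AOX1A*. With 4 arrays this likeness is a description.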

How the data were processed

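The deposited scanner files of 4 Agilent 2-colour arrays were used. The authors obtained them with Agilent Feature Extraction (version 11.0.1.1 for replicate 1 and 10.7.1.1 for replicate 2 per the file headers, 10.7.3.1 per the labels), which subtracted background and corrected dyes within each array. For each spot they hold the deposited log10 ratio of Cy5 over Cy3, a deposited p-value from the error model of a single array, and deposited intensity values of both channels. The deposited series table holds log2 ratios by the authors, equal to the log2 ratio of the processed signals within 0.01 for 99.98% of values, and was an alternative. No genome build was used.

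The log10 ratios were expressed as log2. Controls and between 10 and 23 outlier spots per array were removed, and repeated spots were averaged, which left 43603 probes. Through RefSeq accessions and the TAIR10.1 gene table, 34348 probes were paired to 25410 loci. A probe was kept where the Cy3 or Cy5 signal was well above background on 2 or more arrays (34739 probes), and the probe of highest mean signal stood for a locus. Ratios were fitted with limma 3.58.1 in R 4.3.3 (lmFit and eBayes, 1 coefficient per line, 2 residual degrees of freedom, Benjamini-Hochberg adjustment, threshold 0.05). Channel levels were fitted with limma on intensities after normexp (offset 50), loess and Aquantile. The arrays' number limits the precision. The limma p-values rest on the spread between the 2 pools of each line, shared by both lines and moderated across probes. The pools of a line also differ in slide, experiment and labelled untreated sampling day, so this spread holds those differences too. The limma step was run on simulated independent values with known changes. Those values lack the slide and replicate structure of these arrays, so that run does not give the power to detect the differences seen here.

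Replicate numbers pair the samples, since the labels give them as an experiment (exp1 and exp2). Same-numbered arrays deviated together from their line means (correlation 0.471 across probes). With 2 arrays per line, both replicate numbers must give this same value, so it is a description and does not test the pairing. The fit with this block, other scalings, all probes of a locus, a stricter filter, the single-array p-value and leaving out each array were tried as alternatives. All members are named. Genes of other lists are named where beyond 2-fold on both arrays of a line, past the threshold, or at the ends of a list. For root markers beyond 2-fold no ratios are given, as their signals were at background. *AT2G04050*, *AT2G04070*, *NDB4*, *AT2G32020*, *NAC016*, *At3g50940*, *GPAT5*, *AOX1B* and *AOX1C* were named after their values were seen. Members and lists were chosen with earlier results of these data known. Probe and promoter sequences were not used here.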

Additional observations from a re-analysis of the deposited data

Results flagged for a closer look

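At the standing probe of 3 of the 10 genes (the brightest of its locus), every Col-0 array lay above 0 and every *AvSAMS1* TF array below 0 in log2 ratio of Al-treated over untreated signal, which was met by 1.68% of all loci. The difference itself was tested by limma and passed the adjusted threshold for none of the 3 (adjusted p = 0.999 for each). *AOX1A* was at 0.60 and 0.087 in Col-0, against -0.88 and -0.44 in the TF line, and *NAC013* was at 0.71 and 0.10 in Col-0, against -0.13 and -0.23 in the TF line. *At2g41730* was at 1.11 and 0.13 in Col-0, against -1.48 and -0.66 in the TF line. In all 3 the Col-0 replicate 2 value was 0.13 or less, so most of the size in Col-0 comes from replicate 1. In replicate 1 the untreated plants were labelled day 0, so Al, elapsed time and exposure to the acid solution cannot be told apart there. Groups of 2 arrays are too small for a check on single outlying samples. When the ratios were instead made by normexp background correction and centred on the median probe, *NAC013* was above 0 on both arrays of the TF line as well, at 0.23 and 0.19. The other *AOX1A* probes were at -0.11 and -0.0027 in Col-0 replicate 2, and with the mean of all probes *AOX1A* no longer met the rule. The 2 genes left, *NAC013* and *At2g41730*, have 1 probe each, so that mean could not change them and is no check on them.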

How the results depend on the processing

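No member passed an adjusted p of 0.05 in any setting, and the lowest adjusted p of a member was 0.122. Of 560 alternative values of the member results, 40 changed sign, nearly all of them for estimates near 0 or when an array was left out. Normexp background correction with median centring, which moved the median of all loci to between 0.23 and 0.27, turned *UPOX* in Col-0 to 0.28, *UGT74E2* in Col-0 to 0.16 and *NAC013* in *AvSAMS1* TF to 0.21, and gave 2 members beyond 2-fold up in Col-0 (0 in the report) and 3 with both *AvSAMS1* TF ratios below 1 (5 in the report). The mean of all probes turned *UPOX* in Col-0 to 0.0065 and *NAC017* in *AvSAMS1* TF to -0.055 and gave 1 member beyond 2-fold up in Col-0. Scaling to the 75th percentile turned *UGT74E2* untreated to 0.042 and, in Al-treated plants, *UPOX* to -0.060 and *NAC017* to 0.031, and left 0 probes called in untreated plants (74 in the report). The stricter filter left 0 called in either channel. The replicate block gave 367 called in untreated plants, and 0 for each ratio comparison as without it, and changed no member's call. The *AOX1A* line difference had an unadjusted p under 0.05 with normexp and either loess or median centring, with an adjusted p of 1.00 in both. Within replicate 2 the line difference was -0.16 for *UPOX* and 0.097 for *At5g09570*, and the single-array P-value rule gave 3 members up in Col-0 and 2 down in *AvSAMS1* TF. The cause of these changes was not tested.

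Leaving out 1 array at a time gave, for the Al response in Col-0, *UPOX* from -0.58 to 0.52 and *OM66* from -0.22 to 1.54, and in *AvSAMS1* TF, *AOX1D* from -2.52 to 2.60, *UPOX* from -0.74 to 1.07, *NAC017* from -0.24 to 0.37 and *At5g09570* from -0.060 to 0.68. For the difference between the lines it gave *AOX1D* from -4.58 to 0.53, *UPOX* from -0.71 to 1.09 and *At5g09570* from -0.71 to 0.029. In untreated plants the range was -0.26 to 2.62 for *AOX1D*, -0.14 to 0.72 for *NDB2*, -0.59 to 0.32 for *UPOX*, -1.07 to 1.36 for *OM66*, -0.24 to 0.62 for *NAC013*, -0.013 to 0.53 for *NAC017* and -0.78 to 0.71 for *UGT74E2*. In Al-treated plants it was -0.76 to 0.13 for *AOX1A*, -1.77 to 0.56 for *AOX1D*, -0.86 to 0.95 for *UPOX*, -0.75 to 0.12 for *NAC013*, -0.16 to 0.12 for *NAC017* and -0.83 to 0.076 for *At2g41730*. The number of probes called was 0 in both channels without any single array, and the number of members with *AvSAMS1* TF below Col-0 was from 5 to 9. An array left alone in its line was assumed to vary like the other line. The fit with the slide as a random block gave no correlation estimate and was not run.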
